A study of Mus musculus with 8 samples.

Results

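The adhesion genes that join axon and glia and the genes of the Nogo pathway were examined in adult oligodendrocyte progenitors and adult oligodendrocytes of the mouse brain. They are Nfasc, Cntn1, Cntn2, Cadm1, Cadm2, Cadm4, Omg, Lingo1 and Rtn4, taken by name from a list of 9 symbols. The RNA tables hold 8 of the 9 among 11315 genes, and Lingo1 was not analysed here at the RNA level. The promoter, exon and intron columns of the hydroxymethylation tables assign 894 of 1497075 CpG sites to 8 of the 9, and none to Omg.

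The cells were sorted by fluorescence from brains of C57BL/6 mice at postnatal day 60. The first population, adult oligodendrocyte progenitor cells (aOPC), was taken from Pdgfra-H2BEGFP mice, in which the Pdgfra locus drives a nuclear EGFP, and adult oligodendrocytes (aOL) came from Plp-EGFP mice, in which a transgene with Plp regulatory sequence drives EGFP. No treatment or deletion is named for either group. From each population, 2 RNA-seq libraries were analysed here, with 2 libraries of reduced representation hydroxymethylation profiling (RRHP). They are numbered replicates 2 and 3, and came from DNA and RNA of the same cell pellets. The paper also lists a replicate 1 for each population, which was not analysed here. The titles set the groups, since the tissue label of the aOL RRHP libraries names the Pdgfra reporter. The titles call the aOL RNA samples pre-myelinating and the protocol calls them myelinating. The RNA libraries labelled aOPC carried oligodendrocyte transcripts at levels near those of the aOL libraries. Mbp, a major myelin protein gene, was at 19.58 and 17.55 in aOPC replicates 2 and 3 and at 19.17 and 19.40 in aOL, on the deposited scale, which is read as log2 although no header states the base. Of the 7 oligodendrocyte markers, none of them called, 2 lay lower in both aOL libraries and 1 higher, without overlap. Of all tested genes, 29.9% lay lower and 31.9% higher in this way. Mog was at 17.59 and 17.76 in aOPC and at 16.89 and 17.16 in aOL, and Opalin at 16.13 and 15.88 against 14.88 and 15.17. Cnp, the marker that lay higher, was at 19.40 and 19.28 in aOPC and at 19.58 and 19.58 in aOL. Pdgfra, which marks progenitors, was at 7.54 and 5.47 in aOPC and at 4.98 and 1.63 in aOL. The log2 of the summed level of 7 oligodendrocyte markers was 22.56 and 22.35 in aOPC and lay between those values in aOL. For 8 progenitor markers, a sum carried by the lineage genes Olig1, Sox10 and Olig2, it was 17.53 and 17.28 in aOPC against 17.24 and 17.31 in aOL. Their median log2 fold change was -0.67. Without overlap, 4 of the 8 lay lower in both aOL libraries and 1 higher, against 29.9% and 31.9% of all tested genes. Neu4 was at 9.90 and 7.07 against 3.03 and 3.61, and Vcan at 8.87 and 5.27 against 2.49 and 3.24, and neither was called. For 5 neuron markers of 7 the sum was 9.72 and 7.61 against 8.01 and 7.57. For 6 astrocyte markers it was 13.26 and 13.10 against 13.22 and 13.37, and for 6 microglia markers 12.35 and 11.80 against 11.97 and 11.55. The 2 measured endothelial markers of 4 were higher in both aOL libraries, with sums of 9.07 and 9.37 against 9.83 and 10.25, and Cldn5, a tight junction gene, was at 0.33 and 1.80 against 5.92 and 7.13. The part of these cell types in the RNA values was not tested. In such bulk samples, fewer cells of a type and less RNA per cell cannot be told apart. The labels do not say that the replicates are separate animals, so each p-value measures only the spread between these samples.

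Myelin is held to the axon by cell adhesion molecules. The contactins and neurofascin join axon and glia beside the node of Ranvier, and the Cadm proteins, also called nectin-like molecules, bind each other across the space between axon and myelin. The Nogo pathway carries signals from myelin that restrain axon growth: Nogo, the product of Rtn4, and oligodendrocyte-myelin glycoprotein, the product of Omg, bind a neuronal receptor complex in which Lingo1 is a subunit. RRHP reads 5-hydroxymethylcytosine (5hmC) at CCGG sequences, because a glucosylated 5hmC blocks the enzyme MspI there, keeps the ligated adapter and yields reads. On assembled chromosomes all 1494474 sites coincided with a CCGG in GRCm38, so each site is 1 strand of 1 CCGG.

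At single cytosines the test called 6 intronic sites of 4 genes, all higher in aOL, 5 of which had enough reads for the test in the aOL libraries alone. The windows below give 30 bases of the plus strand of GRCm38 around each, because their position in the digest matters for reading them. Capitals mark the CCGG.
Cadm2 intron, cytosine on the plus strand, chr16:67583098-67583127: agcatgttattcaCCGGttcagtgttgctt
Cadm2 intron, cytosine on the minus strand, chr16:67583491-67583520: gagactgccccaaCCGGggatccatcctat
Cntn1 intron 1, cytosine on the plus strand, chr15:92211820-92211849: gtaatctgaacaaCCGGgagccctcctgct
Cntn1 intron 1, cytosine on the minus strand, chr15:92212211-92212240: tgataatttttctCCGGgccatttaacgga
Cntn2 intron 2, cytosine on the plus strand, chr1:132533067-132533096: ccttttctgacttCCGGcagctgcttccca
Cadm4 intron 1, cytosine on the minus strand, chr7:24497517-24497546: ccaccaaatagtcCCGGgaccagttgcagg

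The Cadm2 pair faced each other across a stretch of 393 bases with no other CCGG, and the Cntn1 pair across 391 bases. In both pairs the reads of the plus strand run toward the minus-strand site and back, so the 6 sites stand for 4 MspI fragments. For comparison, the following windows hold the most-read sites of Nfasc, Cadm1 and Rtn4, none of which was called between the populations.
Nfasc intron 1, cytosine on the plus strand, chr1:132686577-132686606: aatagctatgaatCCGGgtatagattaacc
Cadm1 intron 1, cytosine on the minus strand, chr9:47692594-47692623: tcaacttagaataCCGGattagacattaaa
Rtn4 promoter column, cytosine on the plus strand, chr11:29692155-29692184: aagcctgaatcatCCGGgatgttgactcat

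The first comparison asked whether transcripts of these genes differ between progenitors and oligodendrocytes. None of the 8 measured genes passed the test (limma, p under 0.01 and Benjamini-Hochberg adjusted p under 0.05), where 0.0808% of all 11133 tested genes did. In 6 of 8 genes the populations did not overlap, 5 with aOL higher and 1 with aOL lower. Of all tested genes, 61.8% did not overlap, 31.9% with aOL higher and 29.9% with aOL lower. The median log2 fold change, aOL over aOPC, was 0.42 over the 8 genes and 0.02 over all tested genes.

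Among the genes of the paranodal and juxtaparanodal junction, Cntn2 (contactin 2, or TAG-1, a GPI-anchored adhesion protein of the juxtaparanode) was the most abundant per exon length. Its log2 level was 16.52 and 15.77 for aOPC replicates 2 and 3, against 17.16 and 17.02 for aOL. Both aOL libraries lay above both aOPC libraries, and the log2 fold change was 0.94 ± 0.32 (SE) with an adjusted p of 0.194. Cntn2 was the only member with an unadjusted limma p under 0.05, a mark that 12.1% of all tested genes reached with aOL higher. Cntn1, the contactin that forms the axonal side of the paranodal junction, was at 11.80 and 11.14 in aOPC and at 12.13 and 12.04 in aOL. The groups did not overlap for Cntn1 either, with a log2 fold change of 0.61 ± 0.30 and an adjusted p of 0.284. Nfasc encodes neurofascin, whose glial form completes the same junction. It was at 15.93 in aOPC replicate 2 and 14.50 in aOPC replicate 3, against 15.85 and 15.74 in aOL. The aOL values fell inside the aOPC range, and the log2 fold change of 0.58 ± 0.53 (adjusted p 0.533) turned to -0.14 without aOPC replicate 3.

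The Cadm genes differed less. Cadm4, the oligodendrocyte partner in the internode, was at 14.11 and 14.17 in aOPC and at 13.89 and 13.81 in aOL. It was the only member with both aOL libraries below both aOPC libraries, by a log2 fold change of -0.29 ± 0.19 (adjusted p 0.394). Cadm2 was at 12.35 and 12.37 in aOPC and at 12.77 and 12.52 in aOL. The groups did not overlap for Cadm2, and the log2 fold change was 0.29 ± 0.20 (adjusted p 0.428). Cadm1 was at 13.08 and 13.67 in aOPC and at 13.30 and 13.08 in aOL, which overlap. Its log2 fold change of -0.18 ± 0.29 (adjusted p 0.709) became 0.11 without aOPC replicate 3.

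Omg and Rtn4, the measured members of the Nogo pathway, lay higher in aOL by less than the test could call. Omg was at 14.75 and 14.25 in aOPC and at 15.06 and 14.94 in aOL, a log2 fold change of 0.50 ± 0.26 (adjusted p 0.304). Rtn4 was at 15.88 and 15.62 in aOPC and at 16.08 and 16.10 in aOL, a log2 fold change of 0.34 ± 0.20 (adjusted p 0.371). For neither gene did the groups overlap, and both 95% intervals included 0, from -0.20 to 1.20 for Omg and from -0.22 to 0.90 for Rtn4. The aOPC libraries differed from each other by more than the aOL libraries did in 6 of the 8 genes. Without aOPC replicate 2, where a lone aOPC library is assumed to vary like the aOL pair, Nfasc, Cntn1, Cntn2 and Omg passed the test, as did 36.3% of all tested genes. Without aOPC replicate 3, none of the 8 passed and the log2 fold changes were 0.28 for Cntn1, 0.57 for Cntn2, 0.25 for Omg and 0.21 for Rtn4, while 21.3% of all tested genes passed.

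**Figure D1:**
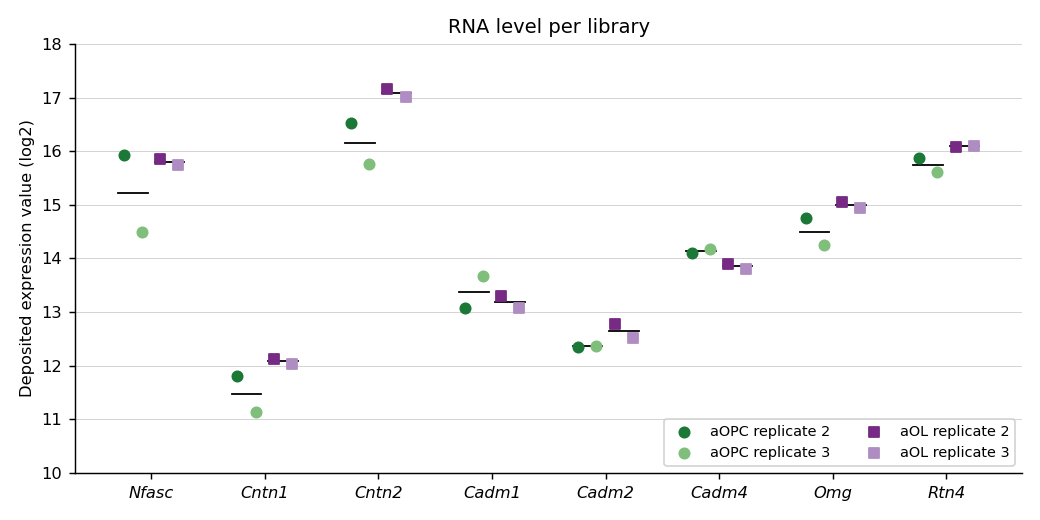
Deposited log2 expression value (vertical axis, from 10 to 18) of the 8 measured genes (horizontal axis) in the 4 RNA libraries. Points are single libraries and bars are the means of 2 libraries; the aOL libraries lie above both aOPC libraries for Cntn1, Cntn2, Cadm2, Omg and Rtn4, below for Cadm4, and within the aOPC range for Nfasc.

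Levels of different genes were set side by side only after subtracting the log2 of the exon length in kilobases. On that scale the aOL means ran from Cntn2 (13.87) and Omg (13.85) through Rtn4 (13.28), Cadm4 (12.74) and Nfasc (11.97) to Cadm1 (9.81), Cadm2 (9.35) and Cntn1 (8.85). Cntn2 and Omg did not differ beyond the spread of the aOL libraries, while at each later step the aOL libraries of the neighbouring genes did not overlap. The aOPC means ran in another order, from Omg (13.34), Cadm4 (13.03), Rtn4 (12.95) and Cntn2 (12.93) to Nfasc (11.39), Cadm1 (9.99), Cadm2 (9.06) and Cntn1 (8.24). For the genes nearest to each member over the 4 libraries, with each gene centred on its own mean, the Euclidean distance was 0.0162 for Rtn4 and Chd1l, 0.0251 for Cntn1 and Man2b2, and 0.0253 for Omg and Rbak. From 114 to 451 genes lay within a distance of 0.2 of each non-overlapping member, so 4 libraries do not single out a partner.

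No measured gene of the partner lists passed the RNA test. Of 21 genes that bind, anchor or are related to the adhesion molecules, 13 were in the RNA tables. None of them passed the test and none had an unadjusted limma p under 0.05. Their median log2 fold change was 0.36. The largest was that of Ank2, an ankyrin that ties membrane proteins to spectrin, at 14.52 and 12.86 in aOPC against 15.07 and 14.89 in aOL, a log2 fold change of 1.29 with an adjusted p of 0.277. Of 21 genes of Nogo signalling, its reticulon relatives and the Omg locus, 16 were measured and none passed the test, with a median of 0.12. Tnfrsf19 (TROY), a co-receptor in the complex with Lingo1, was at 6.72 and 6.98 in aOPC and at 8.10 and 8.64 in aOL, 1.52 higher with an adjusted p of 0.132. Lingo3, a relative of Lingo1, was at 5.20 and 7.19 in aOPC and at 8.07 and 8.38 in aOL, with a log2 fold change of 2.03 and an adjusted p of 0.203. Wnk1, a kinase, was at 14.49 and 14.18 in aOPC and at 13.07 and 13.20 in aOL, a log2 fold change of -1.20 with an adjusted p of 0.131. The lists were drawn up with earlier results of these data known.

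The second comparison asked whether 5hmC over these genes differs between the populations. RRHP totals were 7113237 and 17121440 reads for aOPC replicates 2 and 3, against 15923775 and 27057859 for aOL. aOPC replicate 2 stood apart, with 5.74% of its reads in CpG islands against 2.38% to 3.32% in the others. Reads were summed over the exon and intron sites of each gene and scaled to CPM, the count for each 1e6 reads of the library. None of the 8 gene bodies passed the test (edgeR quasi-likelihood, adjusted p under 0.05), where 0.849% of 18488 tested gene bodies did. None had an unadjusted p under 0.05 in the edgeR test, which 7.30% of gene bodies reached, and in all 8 the libraries of the populations overlapped in CPM, whereas 38.8% of gene bodies did not overlap.

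For 7 of the 8 genes the sums were large and the intervals narrow. Nfasc had 191 and 183 CPM in aOPC against 185 and 168 CPM in aOL over 160 sites. Its log2 fold change was -0.09, with a 95% interval from -0.37 to 0.19. Cntn1 had 75.6 and 86.3 CPM in aOPC against 95.1 and 84.0 CPM in aOL, a log2 fold change of 0.13 (interval from -0.17 to 0.43). The contactin gene with the highest RNA level, Cntn2, had 79.1 and 78.8 CPM in aOPC against 81.2 and 71.9 CPM in aOL, a log2 fold change of -0.06 (interval from -0.33 to 0.22).

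The Cadm family was as close between populations. Cadm1 had 126 and 152 CPM in aOPC against 168 and 152 CPM in aOL, and Cadm2 had 139 and 176 CPM in aOPC against 178 and 164 CPM in aOL. Their log2 fold changes were 0.19 (interval from -0.12 to 0.50) and 0.10 (from -0.22 to 0.42). Cadm4 is a short gene with 35 sites. It had 23.6 and 22.3 CPM in aOPC against 24.4 and 20.5 CPM in aOL, a log2 fold change of -0.04. Lingo1, the receptor subunit, had 77.6 and 94.9 CPM in aOPC against 104 and 88.4 CPM in aOL, a log2 fold change of 0.14 (interval from -0.18 to 0.46). The columns assign 91 sites to Lingo1, whereas its RefSeq span of 178 kb holds 191 sites with reads. Over that whole span the log2 fold change was 0.18 with an adjusted p of 0.786.

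Rtn4 had almost no hydroxymethylation reads in its body. Of its 20 body sites, 15 are also among its promoter sites, so both sums rest largely on the same sites. The 20 sites gave 42, 25, 22 and 70 counts in aOPC replicates 2 and 3 and aOL replicates 2 and 3, or 5.90, 1.46, 1.38 and 2.59 CPM. The highest value was that of aOPC replicate 2, the library with the raised island share, and 15 of the 20 sites lie in a CpG island. The log2 fold change was -0.79 with an interval from -2.23 to 0.64, and it turned to 0.47 without aOPC replicate 2. Without aOPC replicate 3 it was -1.50 and passed the test, as did Cadm1 at 0.36, in a fit where 22.6% of all gene bodies did. Without aOPC replicate 2 the log2 fold change was 0.05 for the Cadm1 body and 0.03 for the Cntn1 body. These sums cannot show a difference of moderate size for Rtn4.

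The number of CCGG differs between genes, so the density of reads was taken per CCGG cytosine in the RefSeq span. Rtn4 had 0.0545 CPM per cytosine, at percentile 7.27 of 26759 genes with at least 10 such cytosines, whose median was 0.265. Cntn2 had the highest density of the 9, at 0.712 CPM per cytosine (percentile 93.2), followed by Nfasc at 0.541 and Lingo1 at 0.483. Cntn1 stood at 0.406, Cadm1 at 0.354, Cadm4 at 0.334 and Cadm2 at 0.301, all above the median. In every library the density of Rtn4 was the lowest and that of Cntn2 the highest of the 8 genes with reads.

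Omg gave no RRHP reads. It lies on chromosome 11 from 79500982 to 79504082 (GRCm38, minus strand), inside an intron of Nf1. Its span holds a single CCGG, at 79503939, and neither cytosine of it is listed with a read. The next CCGG lies 4625 bases to the right and 3297 bases to the left. The nearest listed sites, both assigned to Nf1, are 338 bases below the gene, with 1 read in 1 library, and 4484 bases above it. The Nf1 gene body around it had 351, 1024, 1153 and 1667 counts in all.

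The reads came mostly from cytosines on fragments of middle length. Of the 2206 CCGG cytosines in the 9 spans, those whose facing CCGG lay at least 100 and under 400 bases away were read in 99.3% of cases and held 68.9% of the CPM. Those on fragments of 800 bases or more were read in 18.9% of cases and held 1.47% of the CPM. The mean level was 1.40 CPM per cytosine in the first class and 0.0120 CPM in the second. In Rtn4, the 8 cytosines on such middle-length fragments had a mean of 0.194 CPM, the lowest of any member in that class, where the other 7 genes had 1.06 to 1.87 CPM. Of the 20 Rtn4 body sites, 15 lie in a CpG island, and the part of fragment length or island position in its low density was not tested.

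**Figure D2:**
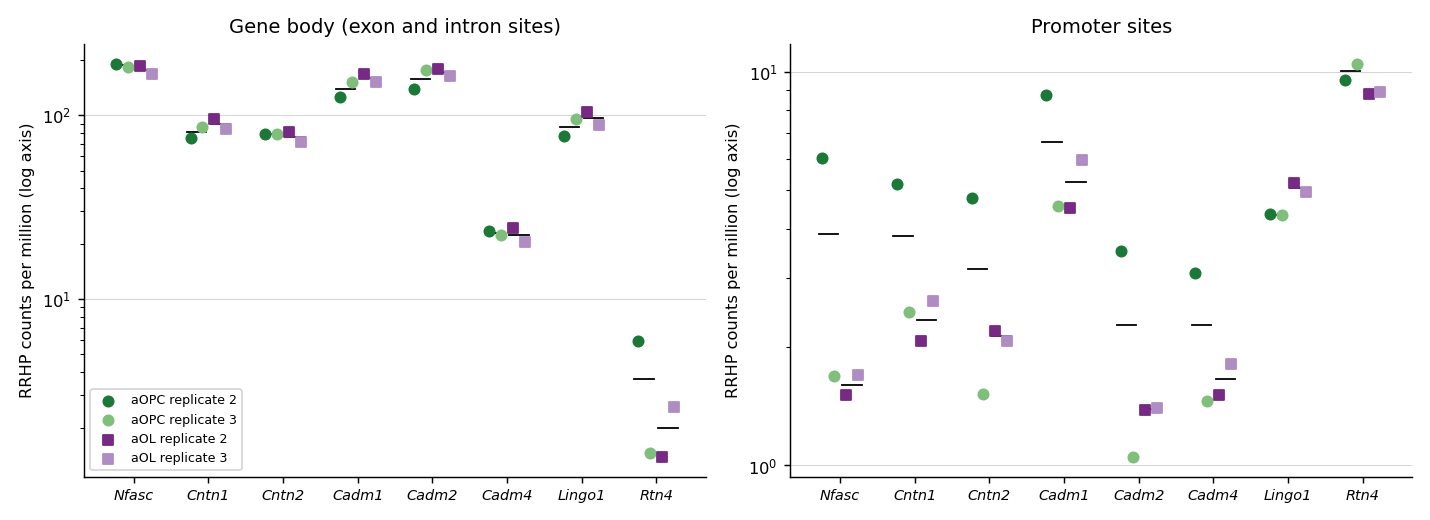
RRHP CPM (log axis) summed over gene body sites (left) and promoter sites (right) of the 8 genes with sites, in the 4 libraries. Points are single libraries and bars are the means of 2 libraries; Rtn4 has the lowest gene body level, from 1.38 to 5.90 CPM, and aOPC replicate 2 is the highest library at 6 of the 8 promoters.

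Promoters held few reads. Sites in the promoter column lay from -778 to 957 bases around the nearest annotated start and numbered 5 (Lingo1) to 33 (Cadm1) per gene. None of the 8 promoters passed the test, where 0.768% of 14579 promoters did. None had an unadjusted p under 0.05 in the edgeR test, which 5.97% of promoters reached. Lingo1 had 4.36 and 4.32 CPM in aOPC against 5.21 and 4.95 CPM in aOL, without overlap. Its log2 fold change was 0.62 with an interval from -0.26 to 1.5 and an adjusted p of 0.998, and without aOPC replicate 3 it was 1.28 and passed the test, in a fit where 1665 of 15190 promoters did. Without aOPC replicate 2 it was 0.17 and on library totals 0.23, and it was not called in either. Nfasc had 6.05 and 1.69 CPM in aOPC against 1.51 and 1.70 CPM in aOL, and its log2 fold change was -0.55. It was -0.15 without aOPC replicate 2, -1.23 on library totals and -1.19 with 3 reads required in every library, and was called in none of them. That library was the highest of the 4 at the promoters of Nfasc, Cntn1, Cntn2, Cadm1, Cadm2 and Cadm4. The part of its island share in these values was not tested.

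The Rtn4 promoter had 9.56 and 10.5 CPM in aOPC against 8.79 and 8.87 CPM in aOL, also without overlap, while 27.5% of all promoters did not overlap. The direction depended on scaling: the log2 fold change was 0.18 with TMM (trimmed mean of M values) factors and -0.19 on library totals, with adjusted p of 0.998 and 0.803. In 3 of the 4 libraries most of the Rtn4 promoter reads came from the single site shown above, which lies 0.729 kb before the gene start and outside the island. It had 31, 148, 118 and 178 counts, or 45.6%, 82.2%, 84.3% and 74.2% of the promoter reads of the 4 libraries. The other 16 promoter sites together had 37, 32, 22 and 62 counts. At the single site the log2 fold change was -0.03 with an adjusted p of 0.985.

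**Figure D3:**
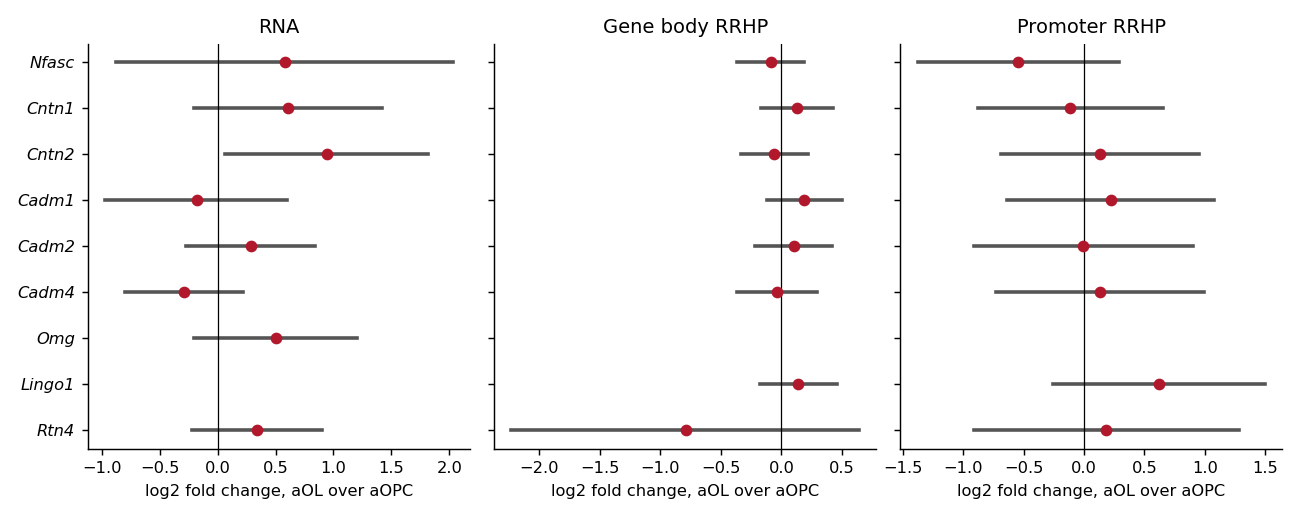
Log2 fold change of aOL over aOPC (horizontal axis; the scales of the 3 panels differ) for RNA (limma), gene body RRHP and promoter RRHP (edgeR), with 95% intervals as lines. No gene passed the test in any panel; Rtn4 has the widest gene body interval, from -2.23 to 0.64, and Omg has RNA values but no RRHP sites.

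The third comparison took single cytosines. Of the 894 sites, 307 had at least 10 reads in at least 2 libraries and were tested, 252 of them intronic, 46 exonic and 9 in promoters. The test called 6 sites, all with aOL higher, against 1.21% called higher and 1.08% called lower among 443062 tested sites. All 6 are intronic, and of the intronic sites in the genome 1.39% were called higher and 1.18% lower. For 5 of the 6 sites the aOL libraries alone reached 10 reads, so these sites entered the test only through the population in which they are high, and their count is a description. An unadjusted p under 0.05 in the edgeR test was found at 25 sites with aOL higher and 18 with aOL lower, against 5.45% and 4.31% of all tested sites. Nfasc, Cadm1, Lingo1 and Rtn4 had no called site.

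The Cadm2 site on the plus strand, at position 67583112, had 4 and 10 counts in aOPC against 68 and 100 in aOL. These are 0.562 and 0.584 CPM against 4.27 and 3.70 CPM, a log2 fold change of 2.69 ± 0.41 with an adjusted p of 0.00102. The facing cytosine at 67583506 had 2, 7, 42 and 63 counts and a log2 fold change of 2.66 ± 0.49 (adjusted p 0.00577). The 2 ends of this fragment had like log2 fold changes. On the other strand of the same 2 CCGG, 1 read at most was listed in any library.

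The Cntn2 site at 132533081 had 1 and 1 counts in aOPC against 29 and 44 in aOL. The ratio of pooled CPM was 20.6 with an exact 95% counting interval from 5.50 to 173, and the log2 fold change was 4.18 ± 0.72 (adjusted p 0.00306). The cytosine it faces, 640 bases away on the minus strand, has no listed read. The plus-strand cytosine of that same CCGG, at 132533721, had 10, 26, 11 and 26 counts and a log2 fold change of -0.88 (adjusted p 0.59). The Cntn1 sites at 92211834 and 92212226 had 1, 6, 36 and 41 counts and 0, 3, 21 and 25 counts, with log2 fold changes of 2.62 ± 0.57 (adjusted p 0.0214) and 3.05 ± 0.75 (adjusted p 0.0478). The second of them was not called without aOPC replicate 2 (2.62, adjusted p 0.0755). Without aOPC replicate 3 it was fitted at 7.15 against a lone aOPC library with no read, which is no bound. The Cadm4 site at 24497532 had 3, 4, 30 and 41 counts, a log2 fold change of 2.41 ± 0.58 (adjusted p 0.0396), and was not called without aOPC replicate 3 (1.71, adjusted p 0.147). In DESeq2 neither this site nor the Cntn1 pair was called (adjusted p of 0.31, 0.142 and 0.41). At the other end of its fragment of 369 bases the counts were 3, 9, 22 and 24, and the log2 fold change of 1.09 was not called (adjusted p 0.555). In all 6 sites both aOL libraries lay above both aOPC libraries, and counts of 10 or fewer in aOPC set the precision.

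**Figure D4:**
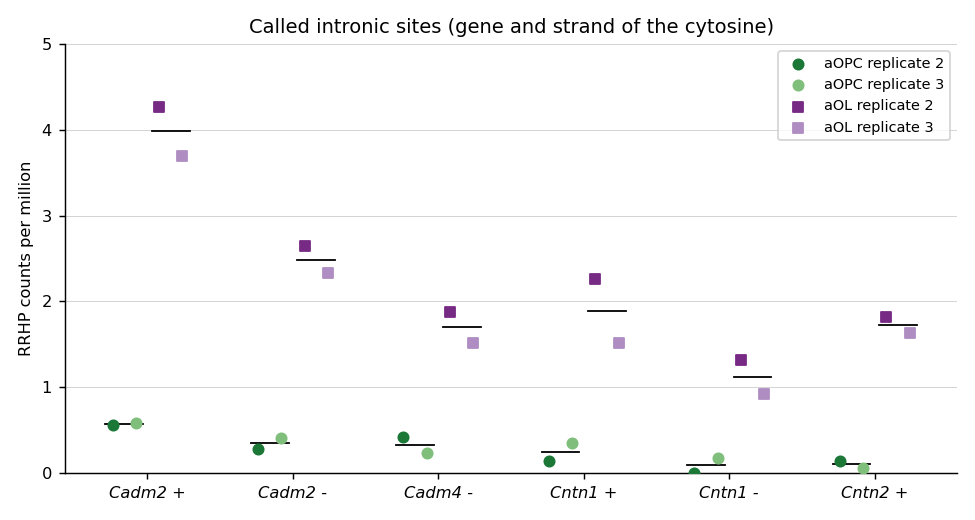
RRHP CPM (vertical axis) at the 6 called intronic cytosines, named by gene and strand, in the 4 libraries, with bars at the means of 2 libraries. All aOL values, from 0.924 to 4.27 CPM, lie above the aOPC values of the same site, from 0 to 0.584 CPM.

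These sites share a feature that was not used to call them. All 6 lie on fragments of 350 bases or more, from 369 to 640 bases, although only 29 of the 307 tested member sites do. In the class from 350 to under 400 bases, all 19 tested member sites, from 6 genes, had a positive log2 fold change, from 0.51 to 3.05, and 5 were called. Of these 19 sites, 13 reached the read minimum in the aOL libraries alone, so their sign is partly set by the filter and is a description. In the 278 tested member sites under 350 bases the median was 0.04 and none was called. There, 10 sites had an unadjusted p under 0.05 with aOL higher and 18 with aOL lower in the edgeR test.

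The same step was present over the whole genome. Among all tested sites from 350 to under 400 bases the median log2 fold change was 1.29 and 8.15% were called with aOL higher, against 0.287% lower. Among sites from 400 to under 800 bases 18.6% were called higher, with a median of 0.25. At 800 bases or more 1760 of 15934 were called higher, the median was -0.02, and none of 8 member sites was called. In the classes under 350 bases 0.100% to 0.266% were called higher and 0.793% to 1.31% lower, in all 738 sites higher and 4658 lower. At 350 bases or more 4640 were called higher and 110 lower. The libraries differed in the same way in total reads: fragments from 350 to under 400 bases held 1.62% and 1.40% of the reads of aOPC replicates 2 and 3, against 3.65% and 3.08% for aOL. When the sites under 350 bases were fitted alone, which leaves out the 6, none of the other 278 member sites was called. The part of fragment length in the calls of Cadm2, Cntn1, Cntn2 and Cadm4 was not tested, and in these libraries it cannot be told apart from the populations.

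**Figure D5:**
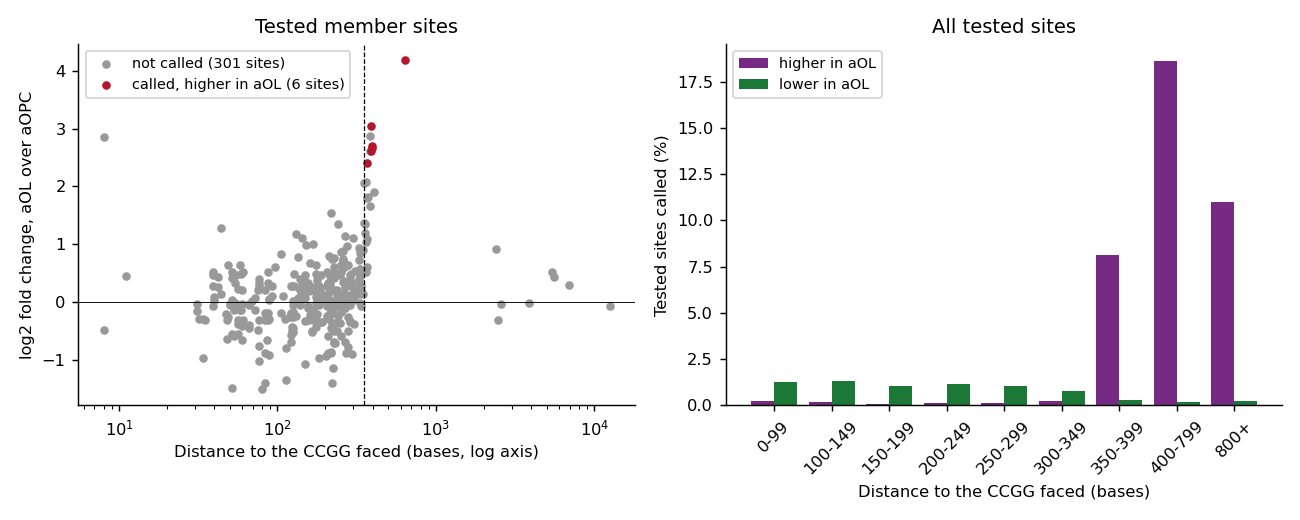
Left, log2 fold change of aOL over aOPC against the distance to the CCGG faced (bases, log axis) for the 307 tested member sites, with the dashed line at 350 bases; right, the percentage of all tested sites called higher or lower in aOL by that distance. The 6 called member sites lie to the right of the line, and among all sites the share called higher rises from 0.258% in the class that ends below 350 bases to 8.15% in the next class, which ends below 400 bases.

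Gene body sums changed little without these sites. With sites under 350 bases alone, the log2 fold change of the Cadm4 body moved from -0.04 to -0.17 and that of the Cntn1 body from 0.13 to 0.09, and the other 6 moved by less. As a description over member sites, log2 differences at the facing ends of a fragment had a Pearson r of 0.44 over 180 pairs. For the opposite strands of the same CCGG, which belong to neighbouring fragments, it was 0.08 over 95 pairs. The points of a pair share their libraries and, at facing ends, the fragment.

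None of the most-read sites of the members was called. The Nfasc site at 132686591 had 154 and 296 counts in aOPC against 285 and 408 in aOL, or 21.6 and 17.3 CPM against 17.9 and 15.1 CPM, and a log2 fold change of -0.36 ± 0.26 with an adjusted p of 0.744. The Cadm1 site at 47692609 had 141 and 251 counts in aOPC against 221 and 365 in aOL, or 19.8 and 14.7 CPM against 13.9 and 13.5 CPM, a log2 fold change of -0.45 ± 0.27 with an adjusted p of 0.672. For the most-read sites of Cadm2, Cadm4, Cntn1, Cntn2 and Lingo1 the log2 fold changes lay between -0.26 and 0.08. For Cadm1 both aOL libraries lay below both aOPC libraries in CPM, and for Nfasc the groups overlapped. Since no most-read site was called, every called site by definition had fewer reads than the most-read site of its gene.

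RNA and gene body values came from the same cell pellets. Cntn2 had a log2 RNA difference of 0.94 and a gene body difference of -0.06, and Cadm4 had -0.29 and -0.04. Neither passed its test. Gene bodies of the partner lists were tested for 20 and 18 genes and none passed. Their unadjusted edgeR p was under 0.05 for 2 of the 20 and 2 of the 18, against 7.3% of all tested gene bodies. These were L1cam (-1.04) and Cadm3 (-0.45), and S1pr2 (-0.38) and Rock2 (-1.14), named after their values were seen.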

How the data were processed

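For RNA, the authors deposited a normalized level for each gene symbol, read here as log2 from its range and the study's use of DESeq2, since no header states the base. It was made from reads aligned with BWA to mm10, exon counts from featureCounts and DESeq2 normalization. The median log2 level was 10.57 in each library, and these values carry no read depth. The deposited RRHP values are raw counts of reads per CpG site and strand, with the authors' promoter, exon, intron and CpG island columns. The aligner and the handling of duplicates for RRHP are not given in the sources used here.

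Sites were joined over 4 tables, and a site missing from a table was given 0. RNA was tested with limma 3.58.1 on genes that reached 5 on the log2 scale in 2 or more libraries. Site counts, and their sums over gene bodies and promoters, were tested with edgeR 4.0.16 (glmQLFTest, filterByExpr for sums, TMM), with DESeq2 1.42.0 as an alternative. P-values were adjusted over all features tested. All 2-sided tests compared aOL with aOPC, 2 libraries each. Counting intervals are exact and cover counting error only. A floor of 3 counts equals 0.422, 0.175, 0.188 and 0.111 CPM in aOPC replicates 2 and 3 and aOL replicates 2 and 3. Fragment length is the distance on GRCm38 to the next CCGG in the direction of reading. Exon lengths came from GENCODE vM21 and gene spans from RefSeq. The fits were tested on simulated data with known changes.

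All 9 members were described. Partner genes were named where the unadjusted p was under 0.05 or the fold was the largest of the list, and sites where called or the most read of a member. The members and lists were chosen with earlier results of these data known. The limit of 350 bases was chosen after the data were seen.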

Additional observations from a re-analysis of the deposited data

How the results depend on the processing

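With 2 libraries per population, single libraries changed the counts of calls. Leaving out each library in turn gave 0 to 4 called RNA members, 0 to 2 called gene bodies, 0 to 1 called promoters and 1 to 32 called member sites, where omitting aOPC replicate 3 gave the 32 (18 higher and 14 lower in aOL) and omitting either aOL library the 1. Without an aOL library, 5 of the 6 called sites no longer reach 10 reads in 2 libraries and are not tested, so that 1 says nothing on them. Of all tested sites, 6.74% were called without aOPC replicate 3, and 1.16% and 1.31% without aOL replicates 2 and 3. Under these omissions the log2 fold change changed sign for RNA of Nfasc (-0.14 to 1.30) and Cadm1 (-0.48 to 0.11). It did so for the gene bodies of Cadm2 (-0.07 to 0.31), Lingo1 (0.00 to 0.32), Rtn4 (-1.50 to 0.47), Cntn2 (-0.13 to 0.03) and Cadm4 (-0.16 to 0.08). Among promoters it did so for Cadm2 (-0.28 to 0.32), Rtn4 (-0.31 to 0.96) and Cntn2 (-0.11 to 0.41).

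Of the 6 called sites, 3 were called by DESeq2. Requiring 10 reads in every library removes all 6 before the test, so its count of 0 among the 129 sites kept, 11 of them at an unadjusted p under 0.05 in edgeR, says nothing on those calls. The same holds for the count of 0 on fragments under 350 bases, with 27 of 278 sites at an unadjusted p under 0.05, an alternative chosen after the data were seen, as was the RefSeq span. On library totals the promoter log2 fold changes of Cntn2 (-0.52), Cadm1 (-0.31), Cadm4 (-0.42) and Rtn4 (-0.19) reversed. Others that reversed were the Cadm2 promoter under DESeq2 (0.04) and under 350 bases (0.04), the Cntn2 promoter under 350 bases (-0.01), and, with 3 reads in every library, the promoters of Cntn2 (-0.24) and Cadm1 (-0.80). The causes were not tested.

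Same-numbered libraries did not deviate together (correlation -0.0736 for RNA and -0.0798 for sites), and no label ties a number to an animal or batch, so the numbers were not taken to pair the samples. The same-numbered RRHP tables do list equal numbers of sites, 1259056 for replicate 2 and 1386042 for replicate 3. With the replicate block, 0 RNA members, 0 gene bodies, 0 promoters and 9 sites were called, and the Cadm2 promoter turned to 0.03. The count of RNA calls over all genes went from 9 to 127 with the block. With no RNA filter or with a mean trend, 0 members were called. Centring on the library medians, which were equal to the printed digits, is no separate check.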
